A study of Mus musculus with 2 samples.

Results

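Erythropoietin and KIT signalling genes were followed through the cells of aged mouse bone and marrow: the receptors Epor and Kit, the kinase Jak2, the transcription factors Stat5a and Stat5b, the feedback inhibitors Cish, Socs1, Socs2 and Socs3, and the target kinase Pim1. These 10 genes were taken by name, all were found among the 32285 genes of the count tables, and all are described. Their levels are given in erythroid cells ordered by the share of globin transcripts in a cell, with cuts at 0.5, 1, 2.5 and 6%, and in megakaryocyte, endothelial and LEPR stromal cells.

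Single-cell RNA-seq had been run on Lin-CD45- cells sorted from femurs and tibias of 3 male INK-ATTAC mice, 24 months old. INK-ATTAC is a transgene in which the p16Ink4a promoter drives an inducible caspase 8, and the animals were untreated. Marrow and bone digests were combined, red cells were lysed, and cells carrying CD5, B220, CD11b, Gr-1, 7-4 or Ter-119 were removed with magnets before live CD45- cells were sorted. The cells were pooled before the libraries were made, and the deposit labels 2 samples as replicates 1 and 2. No label says how these arose.

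Of 11056 barcodes, 10928 were in both samples, whose counts differed by less than sampling noise. They were therefore read as the same cells, are called lanes 1 and 2 here, and were summed into 1 sample, with no comparison between animals. Of these barcodes, 9573 had at least 200 genes and at most 20% mitochondrial UMIs and were kept, with a median of 9857 UMIs. A UMI (unique molecular identifier) marks 1 captured molecule in 1 lane, so a molecule read in both lanes counts as 2 in the sums. Clusters named erythroid held 6392 cells, LEPR stromal clusters 1918, a megakaryocyte cluster 142 and an endothelial cluster 64. The label of these samples is mesenchymal cells, while 66.8% of the kept cells were in erythroid clusters. In the LEPR stromal, megakaryocyte and endothelial clusters all 10 markers of the respective list were found, and in the 7 erythroid clusters 5 to 13 of 16. Globin shares split the erythroid cells into 1915 cells under 0.5%, 784 at 0.5 to 1%, 1622 at 1 to 2.5%, 1491 at 2.5 to 6% and 580 at 6% or more. Levels are given as UMIs of a gene per 1000000 UMIs of the class (CPM) with a 95% interval that covers counting error only. The sort against Ter-119 and the lysis set which erythroid cells could be present, so shares of cells describe this sorted pool.

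Red cell production rests on both receptors in turn. KIT, a receptor tyrosine kinase, binds stem cell factor (Kitl) and sustains the expansion of early progenitors. The erythropoietin receptor has no kinase of its own and works through JAK2, which phosphorylates STAT5A and STAT5B, and these switch on survival and growth genes such as Pim1. The same signal induces CISH and the SOCS proteins, which bind the activated receptor or JAK2 and dampen the signal.

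The receptors followed different courses in erythroid cells: Kit was lower with each of the first 3 steps in globin share, and Epor stayed between 79.0 and 89.7 CPM. Their promoter windows are shown first, as the sequences at the start of the receptor genes that part ways. Each runs from 250 bases before to 50 bases after a RefSeq start (GRCm38.p6), and capitals mark matches to the GATA motif (AGATAA or TGATAA) or the STAT motif (TTCNNNGAA), both searched on both strands. The Epor window is chr9:21963527-21963826 on the minus strand, and the Kit window is chr5:75574737-75575036 on the plus strand.
Epor: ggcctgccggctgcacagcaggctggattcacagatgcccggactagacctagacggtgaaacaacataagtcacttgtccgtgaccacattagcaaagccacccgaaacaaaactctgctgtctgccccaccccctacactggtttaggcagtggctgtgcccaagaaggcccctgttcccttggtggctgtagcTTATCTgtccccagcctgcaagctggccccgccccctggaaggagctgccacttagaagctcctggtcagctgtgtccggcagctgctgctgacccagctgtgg
Kit: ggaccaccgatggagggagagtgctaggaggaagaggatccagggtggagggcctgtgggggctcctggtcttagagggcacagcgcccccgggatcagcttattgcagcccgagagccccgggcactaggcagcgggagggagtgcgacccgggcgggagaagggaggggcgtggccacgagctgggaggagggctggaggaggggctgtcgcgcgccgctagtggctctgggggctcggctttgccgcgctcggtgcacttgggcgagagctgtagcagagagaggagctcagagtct
The Epor window held 1 GATA match, from position -54, with 0 as the first transcribed base, and the Kit windows held none of either motif. Over all 32851 promoter windows of the table, 18.6% held a GATA match and 8.30% a STAT match. Epor spans 4610 bases of chromosome 9 (21958897 to 21963506) and Kit 81807 bases of chromosome 5 (75574916 to 75656722) in the GENCODE M21 annotation, and no exon of another gene on the same strand overlaps theirs.

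Epor stood at 89.4 CPM (interval 85.6 to 93.2) in erythroid cells with globin under 0.5%. It stood at 89.7 CPM at 0.5 to 1%, 79.0 at 1 to 2.5%, 82.7 at 2.5 to 6% and 85.8 (80.0 to 91.9) at 6% or more. From the lowest to the highest globin share the log2 ratio was 0.06 (interval -0.06 to 0.18), and it was 0.11 in lane 1 and 0.01 in lane 2. By counting error alone the interval reaches 0.18 on the log2 scale, while the median of 9459 genes measured in both bins was 0.51. Over all settings tried the Epor ratio lay between -0.38 and 0.11. The largest step between neighbouring bins was from 0.5 to 1% to 1 to 2.5% globin, a log2 ratio of 0.18 (0.07 to 0.29), and the step from under 0.5% to 0.5 to 1% was -0.01 (-0.11 to 0.11).

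The share of cells with an Epor UMI was 53.4% under 0.5% globin and 77.1% at 6% or more. The cells differed in depth, with medians of 10155 and 33552.5 UMIs. After each cell was thinned to 2000 UMIs the shares were 13.3% and 15.2%. LEPR stromal cells, with a median of 5153 UMIs, had an Epor UMI in 6.31% of cells, and in 2.29% after thinning.

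Kit stood at 32.6 CPM (interval 30.4 to 35.0) under 0.5% globin. It stood at 7.41 CPM (5.88 to 9.20) at 0.5 to 1% and at 2.49 (1.96 to 3.13) at 1 to 2.5%. The last bins held 0.970 CPM (0.647 to 1.40) at 2.5 to 6% and 0.734 (0.295 to 1.51) at 6% or more. The first 4 bins did not overlap in their intervals, and the last 2 did. The log2 ratio of the lowest to the highest globin share was 5.47 (4.43 to 6.79), 5.45 in lane 1 and 5.50 in lane 2. The first step alone, between under 0.5% and 0.5 to 1% globin, took 2.14 (1.81 to 2.49) of it. When each cell counted equally, the Kit ratio of the lowest to the highest globin share was 6.62.

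A Kit UMI was seen in 607 of 1915 cells under 0.5% globin (31.7%) and in 8 of 580 cells at 6% or more (1.38%), although the latter cells were deeper. With each cell thinned to 2000 UMIs the shares were 8.03% and 0 of 573 cells, which allows up to 0.524% of cells with a UMI at that depth and sets no limit for the deeper, unthinned cells. Plasma cells, a type not known for KIT, had a Kit UMI in 1 of 46 cells at a median of 30296 UMIs. In the thinned cells under 0.5% globin, 135 of 1867 had Kit and not Epor, 233 had Epor and not Kit, 15 had both, and 1484 had neither. At 0.5 to 1% globin 11 of 753 cells had Kit only and 120 had Epor only. In the bins above, the cells with Kit only numbered 7 of 1606, 3 of 1485 and 0 of 573, while Epor alone was seen in 14.5 to 16.0% of cells.

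**Figure D1:**
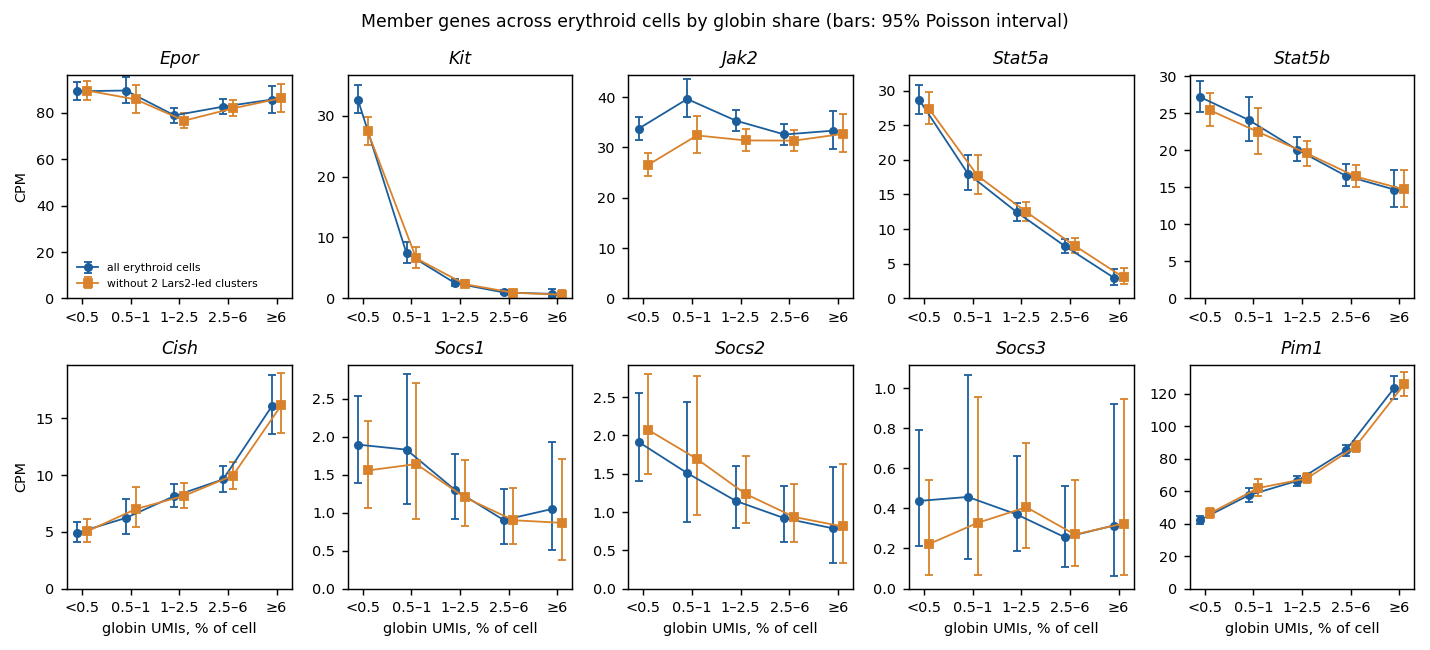
CPM of each of the 10 genes (linear axes from 0) in 5 bins of erythroid cells by the share of globin UMIs in a cell, with 95% Poisson intervals as bars. Circles show all erythroid cells and squares the cells without the 2 clusters that have Lars2 among their leading genes. Kit goes from 32.6 to 0.734 CPM and Stat5a from 28.7 to 2.99, Pim1 from 42.2 to 124 and Cish from 4.91 to 16.0, while Epor lies between 79.0 and 89.7.

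Among the erythroid clusters, 2 with 2468 cells together were led by Lars2 and by Gm26917 or mitochondrial genes, and they made up 54.3% of the cells under 0.5% globin and 10.0% of those at 6% or more. The cells of these clusters were shallower, with medians of 5652 and 9313 UMIs against 18777.5 to 63254 in the other named erythroid clusters, and 1 of the 2 had a median of 11.8% mitochondrial UMIs. Without them, Kit stood at 27.4 CPM under 0.5% globin and 0.595 at 6% or more, a log2 ratio of 5.53 (4.27 to 6.85), and Epor at 89.7 and 86.4. Leaving them out was chosen after seeing the data.

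Jak2, the kinase bound to the erythropoietin receptor (chromosome 19, 29251828 to 29313080), ranged from 32.6 to 39.6 CPM over the bins. It stood at 33.7 CPM (31.5 to 36.1) under 0.5% globin, 39.6 at 0.5 to 1%, 35.3 at 1 to 2.5%, 32.6 at 2.5 to 6% and 33.3 (29.8 to 37.2) at 6% or more. The log2 ratio of the first to the last bin was 0.02 (-0.17 to 0.21). In the clusters led by Lars2 the gene stood at 68.3 and 73.3 CPM, against 15.4 to 34.9 in the other named erythroid clusters. Without those clusters the first bin held 26.6 CPM (24.4 to 28.9) and the last 32.7 (29.1 to 36.6), and the log2 ratio was -0.30 (-0.50 to -0.09). Over all settings tried the ratio lay between -0.30 and 0.48, and the part of these clusters in it was not tested.

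Stat5a and Stat5b, the adjoining genes for both STAT5 proteins on chromosome 11, had courses of unequal slope. Stat5a stood at 28.7 CPM (26.6 to 30.9) under 0.5% globin, 18.0 at 0.5 to 1%, 12.5 at 1 to 2.5%, 7.52 at 2.5 to 6% and 2.99 (1.99 to 4.31) at 6% or more. Each bin was lower than the one before with no overlap of the intervals. Stat5b stood at 27.2 CPM (25.2 to 29.4), 24.1, 20.1, 16.5 and 14.7 (12.3 to 17.3) in the same bins, and the intervals of neighbouring bins overlapped except at 1 to 2.5% against 2.5 to 6%. The log2 ratio of the lowest to the highest globin share was 3.26 (2.74 to 3.89) for Stat5a and 0.89 (0.62 to 1.16) for Stat5b. These intervals do not overlap, and without the clusters led by Lars2 the ratios were 3.18 and 0.79. The genes resemble each other: 608 of the 7407 distinct stretches of 50 bases in Stat5a transcripts also occur in Stat5b transcripts. Of the 1974 in the last 500 bases of Stat5a transcripts, 60 also occur in the last 500 bases of Stat5b transcripts. Reads from those stretches could not be assigned to 1 gene, so a part of both counts is uncertain.

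The feedback inhibitors are introduced with the promoter windows of Cish and Socs3, the only members with a match to the STAT motif, out of the 9 members with a window. The Cish window is chr9:107296409-107296708 on the plus strand and the Socs3 window chr11:117969317-117969616 on the minus strand, written as above.
Cish: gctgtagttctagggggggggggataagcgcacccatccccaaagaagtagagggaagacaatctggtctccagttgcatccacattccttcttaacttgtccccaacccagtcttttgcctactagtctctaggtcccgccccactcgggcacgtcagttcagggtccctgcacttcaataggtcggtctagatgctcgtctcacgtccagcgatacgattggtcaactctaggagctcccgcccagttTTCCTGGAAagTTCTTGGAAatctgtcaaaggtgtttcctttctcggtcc
Socs3: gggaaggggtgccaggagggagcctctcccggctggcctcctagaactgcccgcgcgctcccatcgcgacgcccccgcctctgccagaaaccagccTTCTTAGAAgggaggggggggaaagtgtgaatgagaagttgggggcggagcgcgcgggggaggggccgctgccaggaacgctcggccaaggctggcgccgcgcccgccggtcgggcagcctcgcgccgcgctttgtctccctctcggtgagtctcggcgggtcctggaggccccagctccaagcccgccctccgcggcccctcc
The Cish window held 2 STAT matches, from positions 0 and 11, which lie side by side, and the Socs3 window 1, from position -154. No window of Kit, Jak2, Stat5a, Stat5b, Socs1 or Pim1 held either motif, and over all genes with a window 9.55% held a STAT match in at least 1.

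Cish, which encodes a SOCS family protein that binds the activated erythropoietin receptor, was higher with each step in globin share. It stood at 4.91 CPM (4.07 to 5.89) under 0.5% globin, 6.22 at 0.5 to 1%, 8.15 at 1 to 2.5%, 9.61 at 2.5 to 6% and 16.0 (13.6 to 18.8) at 6% or more. Neighbouring bins overlapped in their intervals except the last pair. From the lowest to the highest share the log2 ratio was -1.71 (-2.07 to -1.35), -1.62 in lane 1 and -1.79 in lane 2. A Cish UMI was present in 6.74% of cells in the first bin and 18.4% in the last, and in 0.964% and 3.14% after thinning to 2000 UMIs.

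Pim1, a serine/threonine kinase that supports survival and is a STAT5 target, was also higher with each step in globin share. It stood at 42.2 CPM (39.7 to 44.9), 57.5, 66.4, 85.1 and 124 (117 to 131) from the lowest to the highest globin share. No neighbouring intervals overlapped. The log2 ratio was -1.55 (-1.67 to -1.43), and -1.44 without the clusters led by Lars2. It was -2.02 when each cell counted equally and -3.26 when cells were assigned by their marker share without clustering. Pim1 UMIs were concentrated in part of the cells: the 192 cells with the most held 71.2% of them in the first bin, the 58 with the most held 51.4% in the last, and the highest count was 46 in 1 cell. After thinning, 4.07% of cells in the first bin and 15.0% in the last had a Pim1 UMI.

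The highest Pim1 level lay outside the bins, in an unnamed cluster of 249 cells with 13 of 16 erythroid markers, a median globin share of 11.9% and a median of only 1640 UMIs. There Pim1 reached 3596 CPM (3365 to 3837), and 239 of the 249 cells held at least 1 Pim1 UMI. Cish stood at 83.3 CPM (51.6 to 127) in the same cluster and Epor at 129 (88.5 to 182). Kit had 2 UMIs over both lanes, and Stat5b had 0, which allows up to 11.9 CPM. When this cluster and another shallow one with erythroid markers were counted as erythroid, the log2 ratio of Pim1 from the lowest to the highest globin share was -2.30, an alternative chosen after seeing the data.

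Single clusters showed where the bins average over unlike cells. The erythroid cluster with the lowest median globin share, 0.103%, had Kit at 29.4 CPM, Epor at 69.1, Cish at 1.36 and Pim1 at 19.3. The cluster with the highest median share among the named ones, 7.06%, had Kit at 0.508 CPM, Epor at 87.7, Cish at 13.4 and Pim1 at 113. The Epor level of that lowest cluster lay below the 89.4 CPM of the whole bin under 0.5% globin. The highest Epor level of a named erythroid cluster, 102 CPM, was in one of the clusters led by Lars2.

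**Figure D2:**
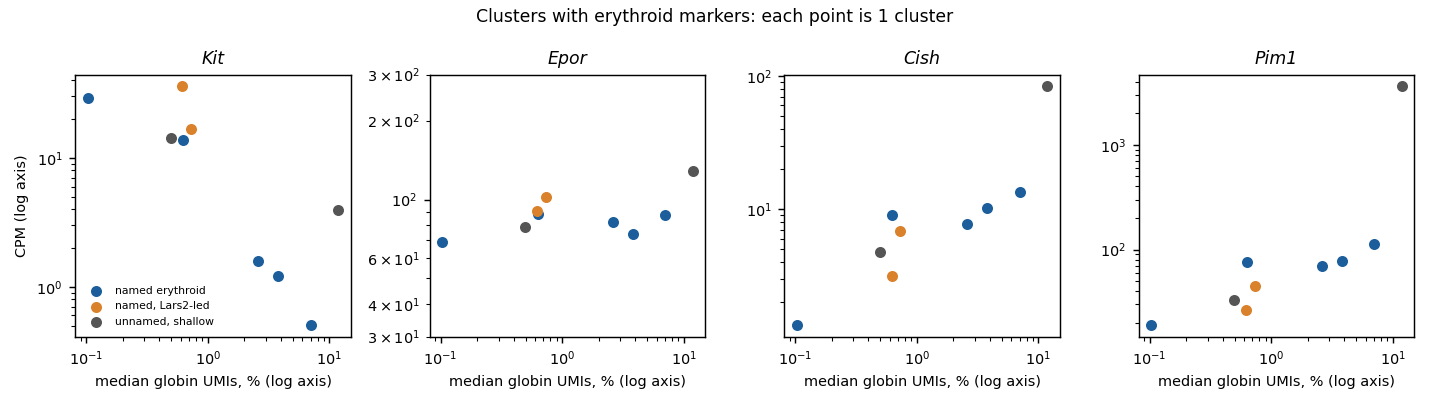
CPM of Kit, Epor, Cish and Pim1 (log axes, each with its own range) against the median globin share (log axis) of the 9 clusters with erythroid markers and no markers of another list among their leading genes; each point is 1 cluster. The rightmost grey point is the unnamed cluster of 249 cells, where Pim1 reached 3596 CPM and Cish 83.3, against at most 113 and 13.4 in the named clusters.

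The remaining inhibitors were scarce in erythroid cells. Socs1, which blocks JAK kinases directly, lay between 0.902 and 1.90 CPM over the bins, Socs2, known for restraining growth hormone signalling, between 0.786 and 1.92, and Socs3, an inhibitor of gp130 and JAK signalling, between 0.255 and 0.457. In the bin of the lowest globin share these levels rest on 46, 45 and 8 UMIs in lane 1. The log2 ratio of the first to the last bin was 0.85 (-0.14 to 2.02) for Socs1 and 1.28 (0.09 to 2.49) for Socs2, and Socs3 had fewer than the 50 UMIs required.

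By the rule of at least a 2-fold difference with at least 50 UMIs, 3 of the 9 members measured were higher under 0.5% globin than at 6% or more (Kit, Stat5a and Socs2), and 2 were lower (Cish and Pim1). Over all 9459 genes, 28% were higher and 3.76% lower by the same rule. The share of members higher is near that of all genes. Without the clusters led by Lars2, Socs2 had too few UMIs and 2 members were higher, beside 25.5% higher and 5.29% lower of 9168 genes. Epor, Jak2, Stat5b and Socs1 were under 2-fold. The median log2 ratio of the 9 was 0.85, against 0.51 over all genes.

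**Figure D3:**
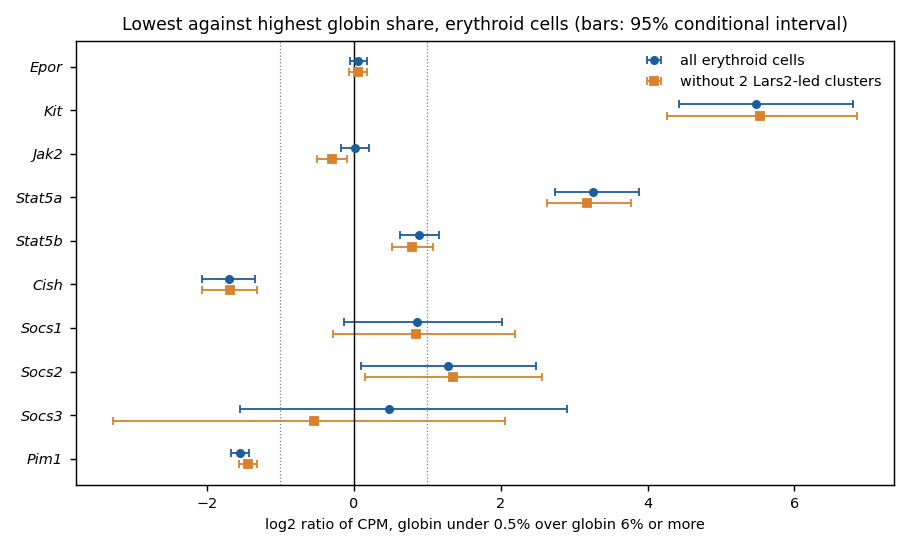
Log2 ratio of CPM, erythroid cells with globin under 0.5% over those with 6% or more, for the 10 genes, with 95% conditional intervals as bars; circles are all erythroid cells and squares leave out the 2 clusters led by Lars2. Dotted lines mark a 2-fold difference: Kit (5.47) and Stat5a (3.26) lie to the right of it with their intervals, Cish (-1.71) and Pim1 (-1.55) to the left, and Epor and Jak2 lie at 0.06 and 0.02.

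LEPR stromal cells, the CXCL12-producing cells that surround marrow vessels and feed blood progenitors, held Socs3 at 178 CPM (167 to 189), Socs2 at 75.6 (68.5 to 83.2) and Socs1 at 28.3 (24.1 to 33.1). Over all erythroid cells these genes stood at 0.357, 1.27 and 1.36 CPM. The log2 ratios of stromal over erythroid cells were 8.96 (8.48 to 9.47) for Socs3, 5.90 (5.61 to 6.20) for Socs2 and 4.38 (4.06 to 4.73) for Socs1.

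Stromal markers were also counted in erythroid droplets. The 10 LEPR stromal markers stood in erythroid cells at a median of 0.0922% of their stromal level (range 0.0709 to 0.527%). Socs3 stood at 0.201%, inside this range, and Socs2 and Socs1 at 1.67% and 4.79%, above it. A Socs3 UMI was found in 41.8% of LEPR stromal cells and in 0.954% of erythroid cells, and in 25.0% and 0.0637% after thinning to 2000 UMIs.

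**Figure D4:**
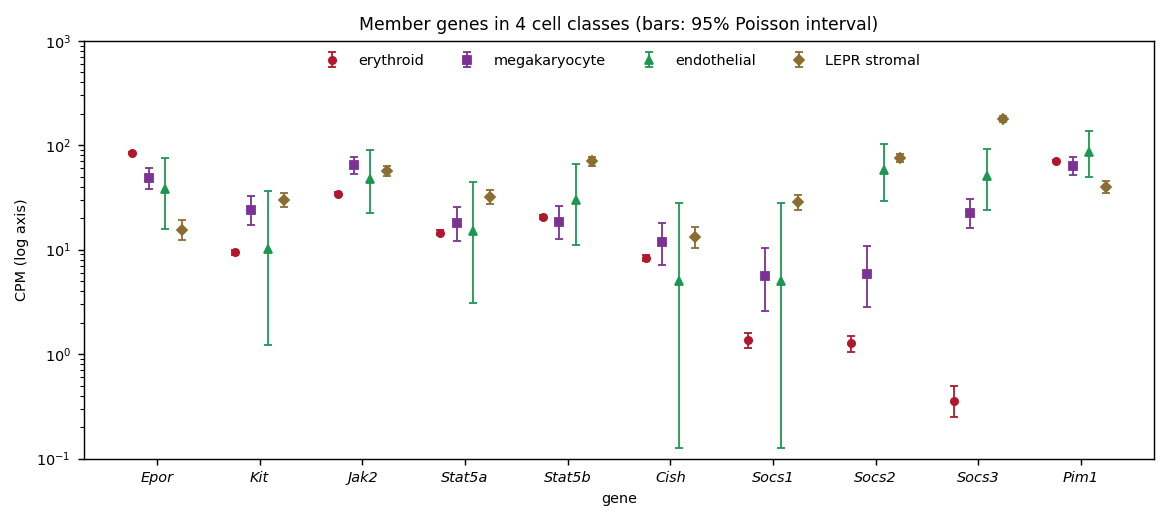
CPM (log axis) of the 10 genes in erythroid (circles), megakaryocyte (squares), endothelial (triangles) and LEPR stromal cells (diamonds), with 95% Poisson intervals as bars. Socs1, Socs2 and Socs3 lie between 0.357 and 1.36 CPM in erythroid and between 28.3 and 178 CPM in LEPR stromal cells, and Epor runs the other way, from 84.2 to 15.5 CPM.

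Epor was the member with at least a 2-fold lower level in LEPR stromal than in erythroid cells, at 15.5 CPM (12.4 to 19.1) against 84.2 (82.4 to 86.0) and a log2 ratio of -2.44 (-2.77 to -2.14). Erythroid RNA was also present in the stromal droplets: 12 erythroid markers other than globins stood there at a median of 10.8% of their erythroid level, with a range of 7.84 to 16.5%. The stromal level of Epor was 18.4% of the erythroid level, and the part of erythroid RNA in it was not tested. Pim1, at 39.9 CPM, was 56.7% of its erythroid level, and a log2 ratio of -0.82 (-1.02 to -0.63) kept it under 2-fold, while it was -1.50 and past 2-fold with classes by marker share without clustering. Jak2 stood at 56.7 CPM in stroma (log2 ratio 0.72, 0.55 to 0.88), under 2-fold. Both STATs were past 2-fold, Stat5a at 31.8 (1.13, 0.90 to 1.36) and Stat5b at 70.4 (1.77, 1.61 to 1.93). With classes by marker share these ratios were 1.87 for Stat5a and 2.07 for Stat5b. Cish stood at 13.2 CPM, a log2 ratio of 0.67 (0.31 to 1.02), which was 1.13 and past 2-fold when each cell counted equally and 0.092 with classes by marker share. In all, 6 of 10 members were at least 2-fold higher in LEPR stromal cells and 1 was lower, while 44.5% of 12409 genes were higher and 19.2% lower.

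Kit stood at 29.8 CPM (25.4 to 34.7) in LEPR stromal cells, with an interval that overlapped that of erythroid cells under 0.5% globin and lay above those of the other erythroid bins. Against all erythroid cells the log2 ratio was 1.66 (1.42 to 1.91). It was 0.65 when each cell counted equally, and 4.06 when cells were assigned by their marker share without clustering. The Kit UMIs of the stromal cells, 163 in lane 1 and 168 in lane 2, came from 110 of 1918 cells (5.74%), and both LEPR stromal clusters had them, at 30.2 and 28.8 CPM. In 19 cells there were 5 or more over both lanes, up to 20. All 19 had Kit in both lanes, but the lanes were read as the same cells and are no second sample. These 19 cells carried Lepr at 1505 CPM, Cxcl12 at 22949 and Adipoq at 1347, against 1498, 20839 and 1046 in stromal cells without a Kit UMI. Their median globin share was 0.111%, and none was called a doublet, though 19 cells are too few to set a limit on that share. Of 12 erythroid markers other than globins, Gata1, Alas2, Slc4a1 and Epb42 were at 0 in these cells. The other 8 stood at 6.87 to 247 CPM, with Car2 the highest, against 365 CPM for Car2 in stromal cells without a Kit UMI. Those cells held Gata1 at 11.8, Alas2 at 10.3, Epb42 at 11.5 and Slc4a1 at 45.5 CPM. In the 19 cells 1 UMI over both lanes was 6.87 CPM, so a level of 0 sets no tight limit. The part of these markers in the Kit level was not tested. Over the LEPR stromal class the 8 mast cell and basophil markers summed to 0.990 CPM, and Ms4a2, Fcer1a, Cma1 and Tpsb2 were at 0. In the 19 cells all 8 of these markers were at 0, which sets no tight limit either. The share of called doublets was 9.89% among the 91 stromal cells with 1 to 4 Kit UMIs and 2.88% among those with none.

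Kit and Socs3 were unevenly spread over the stromal cells. Socs3 stood at 20.6 CPM (1.48 to 88.2) in the 19 cells with 5 or more Kit UMIs, at 115 (82.0 to 158) in the 91 cells with 1 to 4 and at 184 (172 to 196) in the cells with none. Igfbp5, one of the markers, stood at 2831, 4891 and 8767 CPM in the same order. These groups were formed by the Kit count after the values had been seen, and the values are a description.

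Kitl, the ligand of KIT, stood at 1726 CPM in LEPR stromal and 1.04 in erythroid cells. Its level in stromal cells with 5 or more Kit UMIs was 1800 CPM, so ligand and receptor transcripts were counted in the same barcodes. Epo had no UMI in either class.

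In the megakaryocyte cluster Kit stood at 24.0 CPM (17.2 to 32.5), from 82 UMIs in 14 of 142 cells. Those 14 cells had a median of 46943 UMIs and the 10 megakaryocyte markers at a summed 1839 CPM, against 7892 UMIs and 35927 CPM in the other 128 cells. The stem and early progenitor markers summed to 394 and 230 CPM in the same order, and the mast cell and basophil markers to 45.9 and 111 CPM. The Kit UMIs of this class came from deep cells with lower levels of the megakaryocyte markers, though picking cells by a Kit UMI itself favours deep ones. Socs3 stood at 22.5 CPM (16.0 to 30.9) in the cluster, with 32 UMIs over both lanes in a single cell, Socs2 at 5.85 and Socs1 at 5.56. Jak2 was at 64.4 CPM (52.9 to 77.6), a log2 ratio of 0.90 (0.61 to 1.18) over erythroid cells. Epor was at 48.3 CPM (38.4 to 59.9), or 57.3% of the erythroid level, where erythroid markers stood at a median of 23.7% (range 14.9 to 86.4%). Of the members, 4 were at least 2-fold higher than in erythroid cells (Kit and the 3 Socs genes) and 0 lower, against 22.9% and 14.5% of 10978 genes. The cluster also held markers of other blood cells: the 7 neutrophil markers summed to 3239 CPM (1.95 in erythroid cells), the 7 monocyte or macrophage markers to 573 (6.04), the 6 plasma cell markers to 1623 (84.1), the 5 B cell markers to 155 (0.801) and the 5 T or NK cell markers to 142 (0.159). Their part in the levels of the members was not tested.

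The endothelial cluster had 64 cells and a median of 3248.5 UMIs, so most of its intervals were wide. Socs2 stood at 57.7 CPM (29.3 to 102) and Socs3 at 50.2 (24.1 to 92.3), both above their erythroid intervals. The cluster also held markers of the stromal lineages: the 10 LEPR stromal markers summed to 2964 CPM (42.1 in erythroid cells), the 10 fibroblast markers to 881 (1.97), with Dpt, Clec3b, Cilp and Myoc at 0, and the 7 pericyte or smooth muscle markers to 156 (0.608), with Acta2, Myh11 and Cspg4 at 0. Their part in the levels of Socs2 and Socs3 was not tested. Epor stood at 37.6 CPM (15.7 to 75.8), or 44.7% of the erythroid level, and the erythroid markers in these cells stood at a median of 44.7% (26.4 to 49.5%). Kit rested on 2 UMIs in each lane, and Cish and Socs1 on 1 in each. By the 2-fold rule Socs1 and Socs2 were higher than in erythroid cells and Epor was lower, among 9 members measured, though the interval of the Socs1 log2 ratio ran from -3.42 to 4.39, against 24.3% and 22.2% of 10747 genes.

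The order of the levels over all 8 classes follows for each receptor. Kit was highest under 0.5% globin and in LEPR stroma, whose intervals overlapped. Next came the megakaryocyte and endothelial clusters, also overlapping their neighbours, and then the bins of rising globin share. The megakaryocyte level came from 14 cells with lower megakaryocyte markers, and the endothelial level from 2 UMIs in each lane. Epor was highest in the 5 erythroid bins, lower in megakaryocyte cells, whose interval overlapped that of endothelial cells, and lowest in LEPR stroma, which the endothelial interval also overlapped. Jak2 was highest in megakaryocyte and LEPR stromal cells, whose intervals overlapped each other and the endothelial one. Stat5b and Socs1, Socs2 and Socs3 were highest in LEPR stroma, although the intervals of Stat5b, Socs1 and Socs2 overlapped with those of endothelial cells. Stat5a was highest in LEPR stroma, where its interval overlapped those under 0.5% globin and in endothelial cells. Cish was highest at 6% or more globin, where its interval overlapped those of LEPR stromal, megakaryocyte and endothelial cells. Pim1 was highest at 6% or more globin, where it overlapped with the endothelial interval of 49.7 to 137 CPM.

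Other genes of the pathway were taken from a list of 77 symbols in 7 roles, of which 76 were in the tables. Of these 76, 54 had enough UMIs for the comparison of the lowest with the highest globin share: 21 were at least 2-fold higher (38.9%), 4 were lower (7.41%), and 29 were under 2-fold, beside 28% higher and 3.76% lower over all genes. The 4 lower were all in the role of targets. Ccnd3, a cyclin of the G1 phase, stood at 136 CPM in the lowest and 625 in the highest bin, a log2 ratio of -2.20 (-2.26 to -2.14). Erfe, the erythroid hormone that lowers hepcidin, stood at 6.81 and 24.7 CPM, a log2 ratio of -1.86 that became -4.86 with classes by marker share. Trib3, a pseudokinase, stood at 1.02 and 4.25 CPM, and Bcl2l1, which encodes the survival protein BCL-XL, at 4.23 and 11.1. 

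The counts by role stand beside the same 28% over all genes. Among the 21 higher genes, the role of kinases gave 4 of 5 measured: Fyn (3.27 and 0.577 CPM), Tyk2 (log2 ratio 1.78), Lyn (log2 ratio 1.47) and Btk (log2 ratio 1.38), all cytoplasmic tyrosine kinases. The adaptors and effectors gave 5 of 18, with Vav1, a guanine nucleotide exchange factor that acts below KIT, at 2.33 and 0.0524 CPM, and Pik3cd, a PI3 kinase subunit, at 2.87 and 0.262 CPM. In the highest bin these levels rested on lane means of 0.5 UMIs for Vav1 and 2.5 for Pik3cd. The log2 ratio of Pik3cd was 3.45, 4.82 in lane 1 alone, 2.73 in lane 2 alone and 1.62 with classes by marker share, and that of Vav1 was 5.48, 4.45 in lane 2 alone and without a value in lane 1, where the highest bin held no UMI of it. The negative regulators gave 4 of 12, with Ptpn6, the phosphatase SHP-1 that switches off JAK2 at the receptor, at 21.3 and 3.88 CPM (2.46, 1.98 to 2.98). Of the other STATs, Stat6 (log2 ratio 1.39) and Stat3 (1.00) were among the higher genes, and Stat2 (0.21) was under 2-fold, though it was 1.13 when each cell counted equally and -0.27 without the clusters led by Lars2. The Stat3 ratio lay at the threshold and was under 2-fold in several settings, 0.92 in lane 2 alone and 0.36 with classes by marker share among them. Tfr2, a partner of the erythropoietin receptor, was the only one of 9 other receptors and partners with enough UMIs, at 45.3 and 22.1 CPM. Its log2 ratio of 1.03 also lay at the threshold and fell under 2-fold in lane 2 alone (0.94), with classes by marker share (0.73), without globin and mitochondrial UMIs (0.91) and in other settings. Targets higher in the lowest bin numbered 5 of 14, Etv6 (2.10) first among them.

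In LEPR stromal against erythroid cells, 36 of 68 measured genes of the list were higher (52.9%) and 13 lower (19.1%), beside 44.5% and 19.2% over all genes. Receptors of other cytokines that use gp130 or JAK2 were high in stroma: Lifr stood at 550 CPM, Ghr at 299 and Il6st at 207, against 0.497, 0.198 and 0.203 in erythroid cells. Stat3, which the gp130 receptors among them activate, stood at 132 CPM against 3.35. Of 14 negative regulators measured 10 were higher (71.4%, beside the same 44.5% over all genes), Socs5 at 68.7 against 0.695 CPM among them, and Ptpn6 and Inpp5d were lower.

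The genes whose course over the 8 classes was most like that of Kit, among 10311 genes with at least 200 UMIs, were Znhit6, Nln, Ipo4, Pdxk and Ube4b, with Pearson's r of log2(CPM + 1) of 0.959 to 0.973. For Epor they were Zwilch, Tuba1b, Pin4, Mrpl28 and Dhrs4, with r of 0.991 to 0.997. Of the 8 points 5 are bins of 1 lineage, and all come from the same lanes, so r is a description. Tuba1b, an alpha-tubulin, stood at 697 to 730 CPM in the 5 bins and at 224 CPM in LEPR stroma.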

How the data were processed

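Single-cell 3′ libraries were made from pooled cells of 3 mice, and the labels name 2 samples, replicates 1 and 2. For each the authors deposited a matrix of raw UMI counts, genes by barcodes. The processing notes name Cell Ranger, R 4.0.3, Seurat 4.0 and build mm10, and the matrix header gives software version 3.0.2. Both held nearly the same barcodes, and summed over genes their squared differences were 0.559 of the summed counts, below sampling noise, so they were read as 2 lanes of the same cells, counted as 1 sample and summed per barcode. No test between animals was possible. Cells were clustered with Seurat 5.3.0 and sctransform 0.4.2 in R 4.3.3 (3000 variable genes without the described genes, 30 components, resolution 0.8) and named from 16 marker lists; 3 clusters with 864 cells stayed unnamed. Scrublet in scanpy 1.11.5 called 2.04% and 2.01% of cells doublets at an expected 8%, and these were kept. CPM intervals were exact Poisson, and ratio intervals exact conditional binomial, at 95% on the mean of the lanes (scipy 1.17.1). A call required a 2-fold ratio and 50 UMIs over both groups. On independent Poisson counts simulated for the lowest against the highest globin share (9379 genes), 95.9% of intervals held the true ratio. The intervals are built for such counts, so this checks the calculation only and not their coverage in these data. Members and gene lists were chosen with earlier results of these data known. Pathway genes were named where 4 or fewer per role had the largest ratios between the lowest and highest globin share, or where a count was 5 or fewer, and the pathway genes given for LEPR stroma were chosen after their values were seen. Most pathway genes are given only in counts, and 1 of them is not reported here. The 5 genes most like each receptor were named by Pearson's r.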

Additional observations from a re-analysis of the deposited data

How the results depend on the processing

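No paired analysis was possible because replicates 1 and 2 (lanes 1 and 2) were read as the same cells of 1 pool and there were no groups of animals. In single lanes, the log2 ratio of the lowest to the highest globin share was 5.45 to 5.50 for Kit and 0.01 to 0.11 for Epor, the stromal ratio of Socs3 was 8.87 to 9.05, and the counts of members stayed at 3 higher early and 1 lower in stroma. The Epor ratio, 0.06, was -0.063 with globin and mitochondrial UMIs left out of the total, -0.084 when CPM was averaged over cells with equal weight, and -0.38 with classes by marker share without clustering. The Socs3 ratio, 8.96, was 8.02 with equal weight per cell, 8.46 with classes by marker share and 7.06 with classes by the most UMIs of 4 lists, a setting chosen after seeing the data. With equal weight per cell, 5 members instead of 3 were higher under 0.5% globin. There were 4 with classes by the most UMIs of 4 lists, and 2 with classes by marker share and without the clusters led by Lars2. With classes by marker share, 2 members instead of 1 (Epor and Pim1) were lower in stroma. Among these settings, a share over all genes was at hand only without the clusters led by Lars2 (25.5% of 9168 genes higher). The other counts therefore cannot be set against all genes. Of the other values, 103 of 112 for the globin comparison, 111 of 126 for the stromal one and 276 of 293 for pathway genes moved by less than the counting interval. Causes were not tested. With a minimum of 10 UMIs, 32.5% of genes were higher and 4.32% lower in the globin comparison. Few UMIs widen the intervals of Socs1, Socs2 and Socs3 in erythroid cells and of all members in the 64 endothelial cells.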

Other observations

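Outside the classes described, Pim1 stood at 327 CPM (interval 287 to 372) in 46 plasma cells, with a UMI in 33 of them. Socs3 stood at 271 CPM (237 to 309) in 147 fibroblasts, above the interval of LEPR stromal cells, and a Socs3 UMI was found in 41.5% of them. Kit rested there on 7 UMIs in lane 1 and 3 in lane 2.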
